A study of Rattus norvegicus with 14 samples.

Results

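The genes described here are 6 genes that carry iodide through the thyroid follicular cell or keep that transport running: Slc5a5, Slc26a4, Ano1, Kcnq1, Kcne2 and Slc5a8. They were chosen by name and by function, and they are 6 of the 16816 genes in the count table. PCCL3 is a differentiated rat thyroid follicular cell line. One PCCL3 line carried the human PAX8-PPARG fusion protein (PPFP) with a triple Myc tag at its amino end, and a control line carried the empty vector (EV). Both lines grew in the same medium with serum, bovine thyrotropin, insulin, apo-transferrin and hydrocortisone. Each line received 1 μM pioglitazone, a PPARG agonist, or vehicle for 16 hours, with 3 RNA-seq libraries in each of the 4 groups and 12 in all. Each genotype was 1 cell line, so an effect of PPFP and any other difference between the 2 lines cannot be told apart. Whether a line was a clone or a pool is not given in the sources used here.

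Iodide enters the follicular cell across the basolateral membrane through the sodium iodide symporter, the product of Slc5a5, which uses the sodium gradient that the sodium pump maintains. It leaves across the apical membrane toward the follicle lumen, where it is attached to thyroglobulin. Pendrin, an anion exchanger encoded by Slc26a4, and anoctamin, a calcium-activated chloride channel encoded by Ano1, are the usual candidates for that exit step. Kcnq1 and Kcne2 encode the pore and an accessory subunit of a basolateral potassium channel that sustains iodide uptake. Slc5a8 encodes a sodium-coupled monocarboxylate transporter of the apical membrane that was once proposed to move iodide.

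The upstream sequences of the genes that moved are shown so that their promoters can be read beside the expression values. The RefSeq promoter table, in build GRCr8, held 4 of the 6 genes. The 250 bases before the annotated start are printed 5′ to 3′ on the gene's strand for Slc5a5 (chr16:18580455-18580704, + strand), Slc26a4 (chr6:53873217-53873466, - strand), Ano1 (chr1:209329339-209329588, - strand) and Slc5a8 (chr7:25160030-25160279, + strand). Capitals mark the GC box, GGGCGG.
Slc5a5: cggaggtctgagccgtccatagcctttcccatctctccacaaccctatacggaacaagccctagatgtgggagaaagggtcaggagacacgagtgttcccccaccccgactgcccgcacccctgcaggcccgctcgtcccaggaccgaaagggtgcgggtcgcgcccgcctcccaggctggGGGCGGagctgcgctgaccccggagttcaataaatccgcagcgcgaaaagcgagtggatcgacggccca
Slc26a4: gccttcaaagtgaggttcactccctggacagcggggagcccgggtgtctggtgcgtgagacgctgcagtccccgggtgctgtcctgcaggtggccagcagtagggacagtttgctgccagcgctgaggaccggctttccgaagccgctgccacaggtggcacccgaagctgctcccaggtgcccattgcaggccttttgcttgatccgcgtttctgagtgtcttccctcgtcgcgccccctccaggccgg
Ano1: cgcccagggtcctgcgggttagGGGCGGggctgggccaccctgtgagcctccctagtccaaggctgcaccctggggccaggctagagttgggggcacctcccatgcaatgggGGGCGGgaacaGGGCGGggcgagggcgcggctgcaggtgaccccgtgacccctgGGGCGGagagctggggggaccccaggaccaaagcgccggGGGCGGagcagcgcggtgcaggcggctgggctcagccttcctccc
Slc5a8: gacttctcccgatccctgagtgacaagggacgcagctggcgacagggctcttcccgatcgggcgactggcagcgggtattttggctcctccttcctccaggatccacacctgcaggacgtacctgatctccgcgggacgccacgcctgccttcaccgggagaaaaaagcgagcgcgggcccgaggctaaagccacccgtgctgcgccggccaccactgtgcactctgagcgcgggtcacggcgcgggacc

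Both strands of these windows were searched for 5 short motifs. A match to 1 motif may overlap a match to another, although only the GC box was matched here. The GC box was added to the search after the other 4 motifs had given no match. The GC box was found at 5 places in the Ano1 window and at 1 place in the Slc5a5 window, 69 to 64 bases before the start. It is present in 30.5% of the 33469 promoter windows of the same length, and it was not found in the windows of Slc26a4 and Slc5a8. No match to AGGTCA (the half-site of nuclear receptors such as PPARG), GCNTGAC (a core of the PAX8 site), CAAGTG (the NKX2-1 site) or TGACG (the cyclic AMP response element half-site) was found in the 4 windows. Among all windows these motifs are present in 14.1%, 8.24%, 11.7% and 18.2%, respectively. These letters are therefore absent from these 250 bases only, and the rest of each locus was not searched.

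Libraries held 23724703 to 35240176 counts. Levels are given as CPM, which scales each count to a fixed library total with TMM factors over the 12 libraries, and were not compared between genes because transcript lengths were not used. Adjusted p values come from the quasi-likelihood test of edgeR, adjusted by the method of Benjamini and Hochberg over all genes tested. A gene passed at an adjusted p under 0.05 and was called when its fold change was also above 2. Pparg counts were taken to mark the fusion. With vehicle they were 1.23 to 1.81 CPM in the EV line and 46.7 to 59.8 CPM in the PPFP line. By this gene the libraries followed their labels. Pax8, the other gene of the fusion, did not pass between the lines with vehicle (log2 -0.08, adjusted p = 0.47). The fusion is human and the reads were aligned to the rat genome. Which copy gave these counts was not tested. All 11 follicular cell markers were measured in every group, with a summed level between 9830 and 14218 CPM. Summed markers of C cells reached at most 0.167 CPM, with 4 or 5 of the 5 genes at no more than 3 counts in every library of a group. In bulk RNA, fewer cells that express a gene and less of its RNA per cell cannot be told apart.

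Slc5a5 was lower in PPFP cells, and pioglitazone lowered it further there. In EV cells with vehicle the 3 libraries held 1137, 1074 and 1176 CPM. In PPFP cells with vehicle they held 303, 361 and 344 CPM. Every PPFP library was below every EV library. The fold change was 3.31-fold lower in PPFP cells (log2 -1.73, SE 0.096, 95% interval -1.95 to -1.50, adjusted p = 1.4e-05).

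With pioglitazone, Slc5a5 in EV cells was at 1135, 949 and 1182 CPM, a range that overlapped that of vehicle. In PPFP cells it was at 150.2, 190.4 and 192 CPM, below all 3 vehicle libraries. Thus pioglitazone left 49.6%, 52.8% and 55.7% of the vehicle level in the 3 replicate numbers of PPFP cells, and 99.8%, 88.4% and 101% in EV cells. The fall in PPFP cells was 1.89-fold (log2 -0.92, SE 0.12, adjusted p = 0.0056). In EV cells the log2 fold change was -0.06 with a 95% interval from -0.31 to 0.20. The difference between the 2 responses was itself tested as the interaction term of all 12 libraries and was -0.87 on the log2 scale (SE 0.16, adjusted p = 0.016). It lost significance without PPFP vehicle replicate 2 (adjusted p = 0.073) or replicate 3 (adjusted p = 0.056). With pioglitazone in both lines, Slc5a5 was 6.01-fold lower in PPFP cells (log2 -2.59, SE 0.14, adjusted p = 1.5e-05). The order of its mean levels was EV with vehicle (1129 ± 51.6 CPM, SD, n = 3), EV with pioglitazone (1089 ± 123), PPFP with vehicle (336 ± 29.9) and PPFP with pioglitazone (177 ± 23.7), and only the first 2 overlapped.

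**Figure D1:**
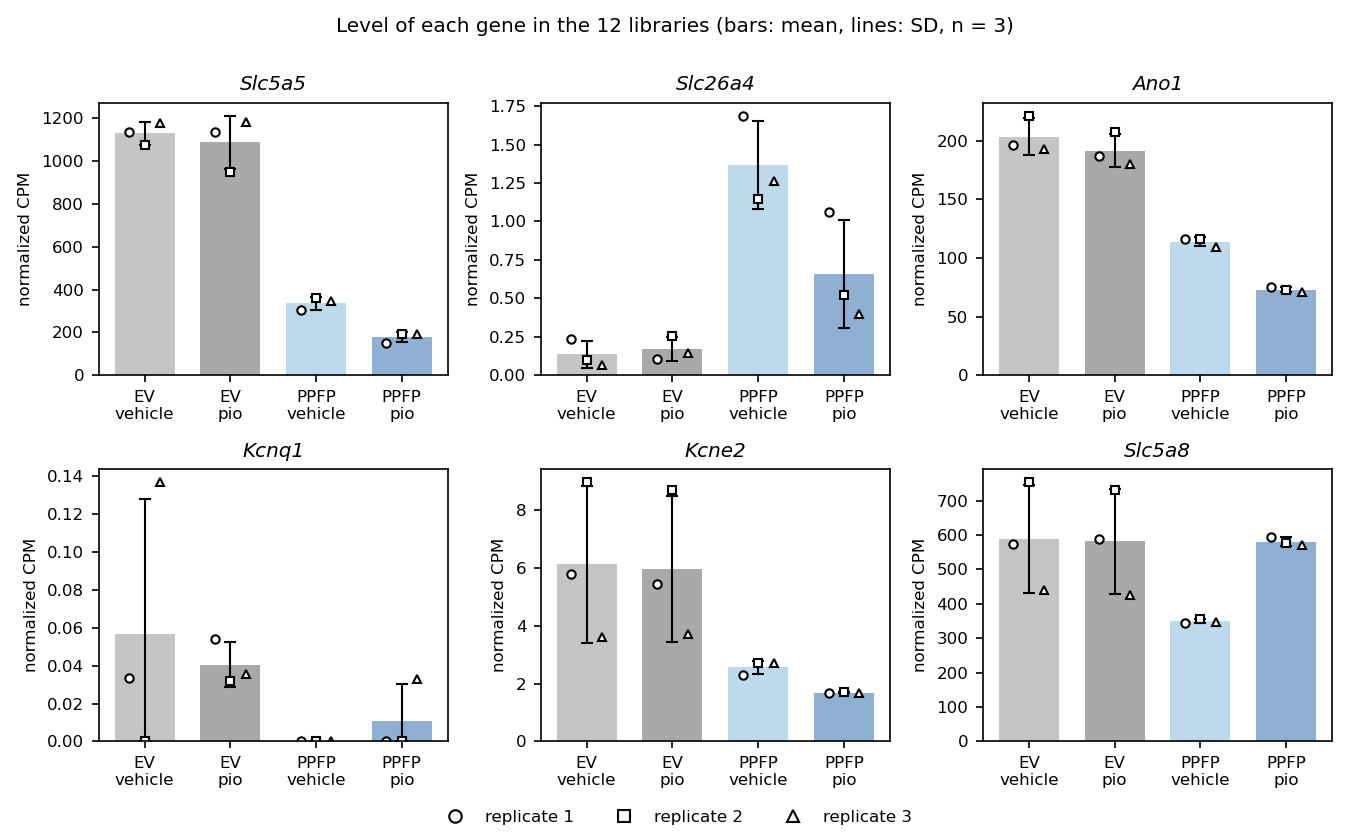
Level of each of the 6 genes in the 12 libraries, as TMM-normalized CPM on a linear axis from 0 with its own scale in each panel. Bars show the mean of 3 libraries, lines the SD and symbols the replicate numbers. Slc5a5 and Ano1 step down from EV to PPFP cells and again with pioglitazone in PPFP cells, whereas Slc5a8 is lowest in PPFP cells with vehicle.

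Of the apical exit genes, Slc26a4 was scarcely counted in EV cells and was higher in PPFP cells. The EV libraries with vehicle held 7, 3 and 2 counts, and the EV libraries with pioglitazone held 4, 8 and 4. PPFP libraries with vehicle held 46, 31 and 30 counts. PPFP libraries with pioglitazone held 28, 14 and 12 counts, all above the EV libraries. As CPM, the group means were 0.134 ± 0.088 and 0.169 ± 0.077 in EV cells, and 1.37 ± 0.28 and 0.659 ± 0.35 in PPFP cells (SD, n = 3). The fold change between the lines was 9.98-fold with vehicle (log2 3.32, SE 0.43, adjusted p = 0.00067) and 3.90-fold with pioglitazone (log2 1.97, SE 0.52, adjusted p = 0.016). Slc26a4 entered these tests only through its PPFP libraries, so a gene kept by that filter had to differ. Without EV vehicle replicate 1 the log2 fold change with vehicle was 3.97. Without EV pioglitazone replicate 1 the second comparison no longer passed (log2 1.69, adjusted p = 0.070).

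In PPFP cells pioglitazone left 62.7%, 45.6% and 31.4% of the vehicle level of Slc26a4, and the vehicle and pioglitazone libraries did not overlap. The log2 fold change was -1.06 (SE 0.37), which did not pass (adjusted p = 0.12). With the replicate number as a block it passed (adjusted p = 0.0010), and it did so as well without PPFP pioglitazone replicate 1 (log2 -1.57, adjusted p = 0.026). Slc26a4 had too few counts to be tested in EV cells, and its interaction term was -1.37 with a 95% interval from -3.04 to 0.30 (adjusted p = 0.52).

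Ano1 followed the order of Slc5a5 with smaller steps. It was at 196, 221 and 193 CPM in EV cells with vehicle and at 187, 207 and 180.1 CPM in EV cells with pioglitazone. In PPFP cells it was at 116, 116 and 109 CPM with vehicle and at 75.0, 72.6 and 70.6 CPM with pioglitazone. The 2 EV groups overlapped, and both PPFP groups stood apart from them and from each other. Ano1 was 1.76-fold lower in PPFP cells with vehicle (log2 -0.82, SE 0.088, adjusted p = 0.00029) and 2.58-fold lower with pioglitazone (log2 -1.37, SE 0.079, adjusted p = 1.7e-05).

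The response of Ano1 to pioglitazone differed between the lines. In PPFP cells 64.5%, 62.5% and 64.7% of the vehicle level was left (log2 -0.64, SE 0.049, adjusted p = 0.00079). In EV cells 95.6%, 93.7% and 93.4% was left, and the log2 fold change of -0.09 had a 95% interval from -0.32 to 0.14. The interaction term was -0.57 (SE 0.11, adjusted p = 0.024). It no longer passed in 6 of the 12 fits without 1 library (adjusted p between 0.052 and 0.078). These left out EV vehicle replicate 1 or 3, EV pioglitazone replicate 1, PPFP vehicle replicate 3, or PPFP pioglitazone replicate 2 or 3.

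The pore and the accessory subunit of the potassium channel were not recovered alike. Kcnq1 gave 1, 0 and 4 counts in EV cells with vehicle, 2, 1 and 1 with pioglitazone, none in the 3 PPFP libraries with vehicle, and 0, 0 and 1 with pioglitazone. Kcnq1 had too few counts to be tested, so whether it differed between the groups is not known. A count of 0 in a PPFP vehicle library allows a level of up to 0.110 to 0.127 CPM, counting error only.

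Kcne2 was low but measured in every library, and it was lower in PPFP cells. It was at 5.79, 8.97 and 3.60 CPM in EV cells with vehicle and at 5.43, 8.70 and 3.73 CPM in EV cells with pioglitazone. In PPFP cells it was at 2.31, 2.70 and 2.70 CPM with vehicle and at 1.66, 1.72 and 1.69 CPM with pioglitazone. Replicate 2 was the highest and replicate 3 the lowest of the EV libraries under both treatments, yet the lowest EV library was still above every PPFP library. The difference between the lines was 2.35-fold with vehicle (log2 -1.24, SE 0.33, adjusted p = 0.019) and 3.45-fold with pioglitazone (log2 -1.79, SE 0.32, adjusted p = 0.0028). The first did not pass without PPFP vehicle replicate 1 (adjusted p = 0.056) or replicate 3 (adjusted p = 0.052). With the 2 EV groups side by side, the largest gap was between replicates and not between treatments.

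Pioglitazone left 71.9%, 63.6% and 62.5% of the vehicle level of Kcne2 in PPFP cells and 93.7%, 97.0% and 104% in EV cells. The fall in PPFP cells passed (log2 -0.60, SE 0.14, adjusted p = 0.038), but with 44 to 73 counts in a library it was lost under 8 of 14 alternatives. These included 5 of the 6 fits without 1 library, namely without any of the pioglitazone replicates or without vehicle replicate 2 or 3 (adjusted p between 0.086 and 0.15). Over all 14 alternatives, which include other tests, filters and scalings, the highest adjusted p was 0.38. The interaction term was -0.57 (SE 0.51, adjusted p = 0.77). With replicate number as a block within each cell line it was -0.57 with an SE of 0.17 and passed (adjusted p = 0.019).

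Slc5a8 showed another pattern: it was lower in PPFP cells with vehicle and rose with pioglitazone to the level of EV cells. EV cells held 574, 754 and 439.6 CPM with vehicle and 587, 731 and 427 CPM with pioglitazone. PPFP cells held 345, 355 and 348 CPM with vehicle and 596, 576 and 572 CPM with pioglitazone. All vehicle libraries of PPFP cells were below all EV libraries, and the pioglitazone libraries of PPFP cells lay within the EV range. The EV libraries spread more widely (CV 26.8% with vehicle) than those of PPFP cells (1.50%), with replicate 2 highest and replicate 3 lowest under both treatments, as for Kcne2.

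With vehicle, Slc5a8 was 1.66-fold lower in PPFP cells (log2 -0.74, SE 0.19, adjusted p = 0.015). With pioglitazone the log2 fold change was 0.03, with a 95% interval from -0.40 to 0.45 (adjusted p = 0.91), and its sign depended on the scaling. In PPFP cells pioglitazone brought Slc5a8 to 173%, 162% and 164% of the vehicle level (log2 0.74, SE 0.041, adjusted p = 0.00037). In EV cells the level with pioglitazone was 102%, 97.0% and 97.1% of that with vehicle, with a 95% interval of the log2 fold change from -0.64 to 0.60. The interaction term of 0.74 (SE 0.29) did not pass (adjusted p = 0.28), whereas with the replicate block within each cell line its SE was 0.048 and it passed (adjusted p = 1.1e-07).

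**Figure D2:**
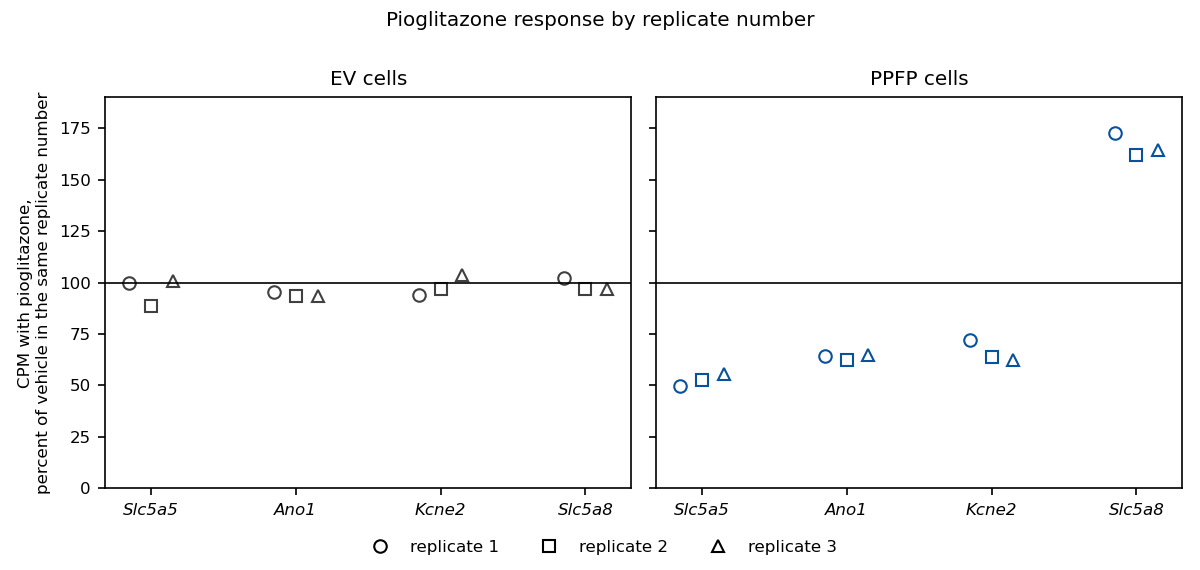
CPM with pioglitazone as a percent of CPM with vehicle in the library of the same replicate number, for the 4 genes tested in both lines. Symbols are the 3 replicate numbers and the line marks 100%. EV values lie between 88.4% and 104%, while in PPFP cells Slc5a5, Ano1 and Kcne2 lie between 49.6% and 71.9% and Slc5a8 between 162% and 173%.

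Set against all genes, calls between the cell lines were common. Slc26a4 is kept out of the counts between the lines here, since the filter kept it only through its PPFP libraries. It was called higher in both comparisons, as were 7.27% of genes with vehicle and 9.3% with pioglitazone. Of the other 4 genes that could be tested, 2 were called lower with vehicle, Slc5a5 and Kcne2, where 7.31% of the 10264 genes tested were. All 4 had an adjusted p under 0.05, against 45.2% of all genes, and the groups of all 4 did not overlap, against 56% of all genes. With pioglitazone, 3 of the 4 were called lower, Slc5a5, Ano1 and Kcne2, where 10.4% of 10291 genes were. The same 3 passed, against 52.7%, and the groups of these 3 did not overlap, against 62.9%. Shares of this size make a passed test between these lines a frequent event for any gene.

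Fewer genes responded to pioglitazone. In PPFP cells Slc5a5, Ano1, Kcne2 and Slc5a8 passed, against 14.8% of 10064 genes tested. None of the 5 reached both limits of a call in edgeR's quasi-likelihood test, against 2.42% of all genes. All 5, Slc26a4 included, had an unadjusted p under 0.05, as did 2900 of the 10064 genes tested. The exact test of edgeR with tagwise dispersion called 1, Slc26a4, and DESeq2 called none. Without PPFP vehicle replicate 1, Slc5a5 was called (log2 -1.01). The vehicle and pioglitazone groups of all 5 did not overlap, against 34.1% of genes. With the replicate block all 5 passed, against 51.6% of all genes. In EV cells none of the 4 genes tested passed, where the share of all genes was 0% and 16 of 10146 genes had an unadjusted p under 0.05. None of those 16 was among the 4, and no gene of the 4 passed in the exact test or in DESeq2 either. None of the 4 had groups that did not overlap, against 1.46% of all genes. The interaction was passed by Slc5a5 and Ano1, against 2.64% of 10482 genes, and with the block within each line by Slc5a5, Ano1, Kcne2 and Slc5a8, against 34.3%. The 4 pairwise comparisons share their groups, so they are not independent of each other.

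**Figure D3:**
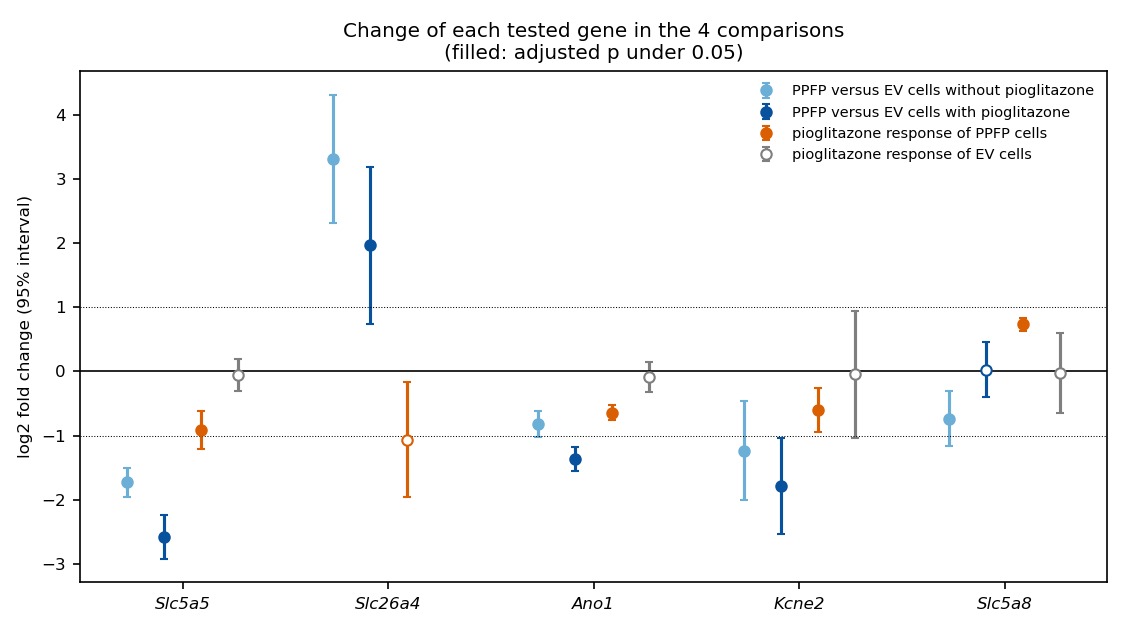
Log2 fold change of the 5 tested genes in each pairwise comparison, with 95% intervals from edgeR's quasi-likelihood test. Filled points passed at an adjusted p under 0.05 and dotted lines mark a 2-fold change. Slc26a4 was not tested in EV cells, and Slc5a8 with pioglitazone is the only comparison between the lines whose interval spans 0.

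The genes nearest to each pattern were found as those with the smallest root mean square difference in centred log2 CPM over the 12 libraries among 10481 other genes, whose median difference is given for scale. For Slc5a5 they were Kcnip3 (0.127), Sept6 (0.140) and Sdsl (0.154), where the median gene was at 1.16. Kcnip3, a calcium-binding protein that acts on potassium channels and on transcription, was at 34.5, 31.0, 9.53 and 5.64 CPM in EV and PPFP cells with vehicle and pioglitazone in turn. For Ano1 the nearest reported here were Lhfp (0.070) and Timp2 (0.084), which encodes a metalloproteinase inhibitor, against a median of 0.65. For Kcne2 they were Lphn3 (0.146), LOC100361087 (0.185) and Snx29 (0.190), against 0.853. For Slc5a8 they were Rab11fip1 (0.144), LOC680200 (0.147) and Vcl (0.155), against 0.478. For Slc26a4 the nearest was Bpifb1 (0.436), against 1.27. Among the described genes themselves, the nearest pair was Ano1 and Kcne2 at 0.349, and Slc5a5 and Slc5a8 were 1.14 apart.

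The sodium pump supplies the gradient that the symporter uses, and its subunit genes moved in both directions. Of 14 subunit genes, 7 were tested, and with vehicle 2 passed as lower and 3 as higher in PPFP cells (median log2 0.38, against 0.002 over all genes), where 45.2% of all genes passed. Atp1b2, a beta subunit, was 4.27-fold lower with vehicle and 11.9-fold lower with pioglitazone, and pioglitazone lowered it 2.98-fold in PPFP cells (log2 -1.57, SE 0.18, adjusted p = 0.0027). Fxyd5, a regulatory subunit, was 8.06-fold and 6.20-fold higher in PPFP cells.

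Other anion channels and exchangers moved in both directions. Of 30 listed genes, 22 were in the table and 12 were tested with vehicle, of which 4, Slc26a7 included, were lower and 2 higher in PPFP cells (median log2 -0.17), where 45.2% of all genes passed. Slc26a7, an anion exchanger of the thyroid that is mutated in some forms of congenital hypothyroidism, was at 10.4 to 20.7 CPM in the EV line and at 0.111 to 0.211 CPM in PPFP cells with vehicle. Its log2 fold change was -6.41 (SE 0.41, adjusted p = 2.4e-05) with vehicle and -6.63 (SE 0.38, adjusted p = 1.7e-05) with pioglitazone. It had 3 to 5 counts in each PPFP library and entered these tests only through its EV libraries, so it had to differ, and it was not tested within PPFP cells. Slc26a9, another anion transporter of this family, was higher: its mean was 0.988 CPM in EV and 2.34 CPM in PPFP cells with vehicle, and 0.836 and 10.3 CPM with pioglitazone. Its rise with pioglitazone in PPFP cells was 4.41-fold (log2 2.14, adjusted p = 0.010). The difference with vehicle (log2 1.26, adjusted p = 0.020) did not pass without PPFP vehicle replicate 2 (adjusted p = 0.066), PPFP vehicle replicate 3 (0.067) or EV vehicle replicate 2 (0.059). Clcn4, an endosomal chloride-proton exchanger, was 2.73-fold and 2.78-fold higher in PPFP cells. When PPFP cells received pioglitazone, 2 of 13 genes tested passed, against 14.8% of all genes, and 4 did with the replicate block, against 51.6%. The count of 2 was 1 to 2 with a library left out.

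Other potassium channels moved in both directions. Of 18 genes in the table, 7 were tested with vehicle, with 2 lower and 3 higher, Kcnma1 among the latter (median log2 0.08), where 45.2% of all genes passed. The count of 5 that passed was 3 to 4 with a library left out and 3 to 6 over 14 alternatives. Kcnj16, an inward rectifier subunit, was at 730.1 ± 114 CPM in the EV line and 273 ± 41.5 CPM in the PPFP line with vehicle. It was at 709 ± 129 CPM and 159 ± 25.1 CPM with pioglitazone. The differences between the lines were 2.63-fold (log2 -1.40, adjusted p = 0.00041) and 4.38-fold (log2 -2.13, adjusted p = 8.2e-05), and the fall with pioglitazone in PPFP cells passed (log2 -0.78, adjusted p = 0.024). With the replicate block 6 of the 7 genes passed in that response, against 51.6% of all genes, where 1 did without it, against 14.8%. The count of 1 was 0 to 3 with a library left out. Kcnk1, a background potassium channel, was 2.39-fold and 2.84-fold higher in PPFP cells. Kcnma1, the pore of a calcium-activated potassium channel, is named after its value was seen. It had 0 counts in each of the 6 EV libraries and 11 to 16 in the PPFP vehicle libraries, and it entered the test only through PPFP libraries, so no fold is given.

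In the family of Slc5a5 and Slc5a8, 3 of the other 10 genes in the table were tested, and 2 were higher in PPFP cells with vehicle (median log2 1.46), where 45.2% of all genes passed. Slc5a3, a myo-inositol cotransporter, was at 14.1 to 18.7 CPM in EV and 61.5 to 67.0 CPM in PPFP cells with vehicle (log2 1.96, adjusted p = 2.0e-05), and was 2.61-fold higher with pioglitazone. Slc5a11, also a myo-inositol cotransporter, was 2.76-fold higher with vehicle. Its fall with pioglitazone in PPFP cells (log2 -1.16, adjusted p = 0.048) did not pass without PPFP pioglitazone replicate 2 (adjusted p = 0.079) or 3 (0.11), or without PPFP vehicle replicate 2 (0.14) or 3 (0.15). Of 4 genes whose proteins bind or sort the symporter, 1 was higher and 1 lower with vehicle, near the 45.2% of all genes that passed: Arf4, a small GTPase of vesicle traffic (log2 0.41, adjusted p = 0.012), and Pttg1ip (log2 -0.27, adjusted p = 0.049). The count of 2 was 1 without EV vehicle replicate 1 or 2, without PPFP vehicle replicate 1, 2 or 3, and with no filter on low counts, and it was 3 without EV vehicle replicate 3. Arf4 and Pttg1ip were named after their values were seen.

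Thyroid hormone transporters, which act at the other end of the pathway, had 4 of 12 genes tested. With vehicle 1 was higher and 1 lower in PPFP cells (median log2 -0.17), where 45.2% of all genes passed. Slc7a8, an amino acid transporter that also carries thyroid hormones, was 3.46-fold higher with vehicle and 4.72-fold higher with pioglitazone. None of the 4 passed in the pioglitazone response of PPFP cells in edgeR's quasi-likelihood test, against 14.8% of all genes, and all 4 did with the replicate block, against 51.6%. With a library left out 0 to 2 passed.

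**Figure D4:**
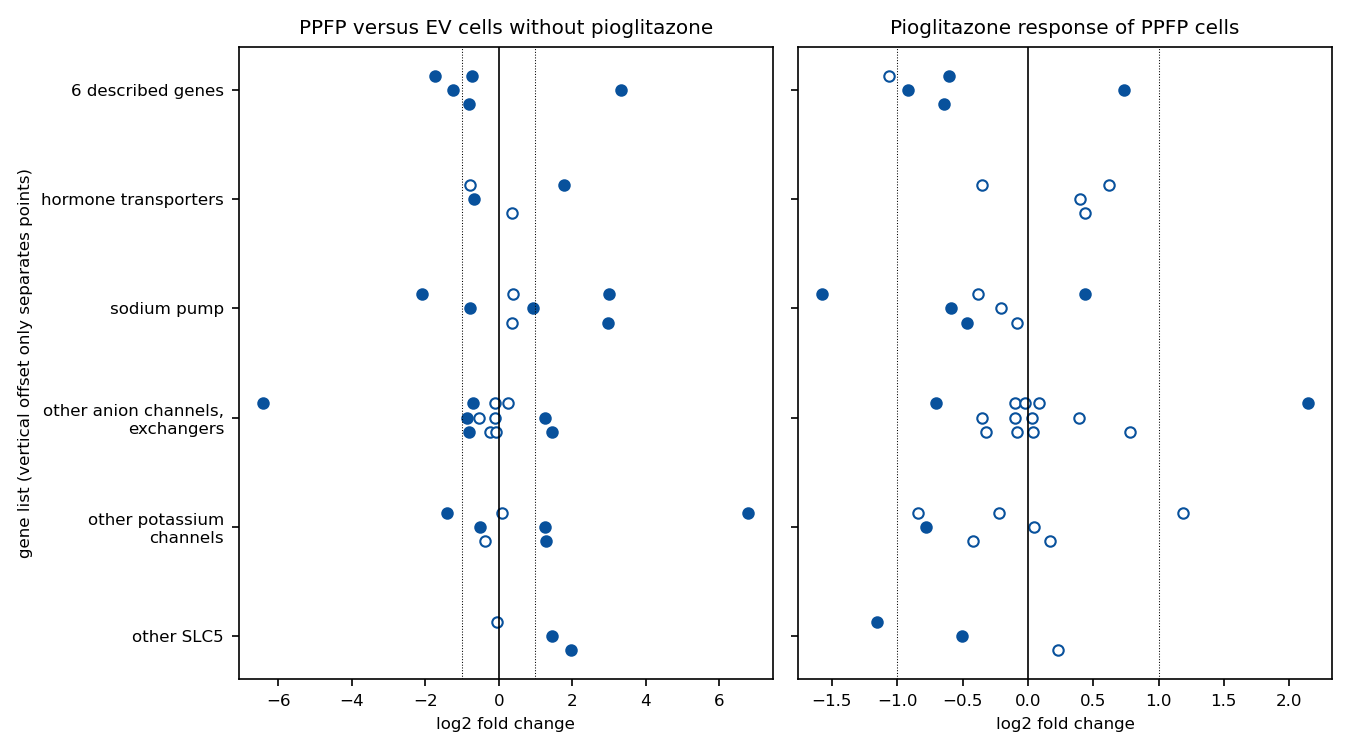
Log2 fold change of each tested gene of 6 gene lists, for PPFP versus EV cells with vehicle and for pioglitazone versus vehicle in PPFP cells. Each point is 1 gene, filled where it passed at an adjusted p under 0.05, and dotted lines mark a 2-fold change. Each list other than that of the SLC5 family has genes on both sides of 0 in the left panel that passed.

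Genes that follow iodide in hormone synthesis did not share 1 direction. Of the 11 follicular cell markers, 6 were lower and 3 higher in PPFP cells with vehicle, where 45.2% of all genes passed in either direction. With pioglitazone in PPFP cells 6 fell and 2 rose, where 14.8% of all genes passed. Iyd, which recovers iodide from iodotyrosines, was 2.62-fold lower in PPFP cells with vehicle. Iyd had 29 to 36 counts in the PPFP vehicle libraries and 7 to 18 with pioglitazone, so the filter on low counts kept it through the vehicle group, where it is high, and its PPFP pioglitazone group alone would not have been kept. Its fall with pioglitazone in PPFP cells (log2 -1.53, adjusted p = 0.025) had an adjusted p of 0.027 with no filter on low counts and was lost without PPFP pioglitazone replicate 2 or 3 or PPFP vehicle replicate 2 or 3 (adjusted p between 0.079 and 0.10). Foxe1, a thyroid transcription factor, was 6.59-fold lower with vehicle. Duox2 and Duoxa2, the oxidase that supplies hydrogen peroxide and its maturation factor, were 4.62-fold and 4.39-fold higher in PPFP cells and rose 2.03-fold and 2.14-fold with pioglitazone. Tg, which encodes thyroglobulin and is named after its value was seen, did not pass between the lines with vehicle (log2 0.43, adjusted p = 0.074) and fell with pioglitazone in PPFP cells (log2 -0.47, adjusted p = 0.00092). Pax8 did not pass between the lines with vehicle (log2 -0.08, adjusted p = 0.47), and fell with pioglitazone in PPFP cells (log2 -0.33, adjusted p = 0.0048).

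Among the other cell types checked, adipocyte markers stood apart between the lines. Their sum over 6 genes was 1.20 to 3.11 CPM in EV cells with vehicle, 0.646 to 2.75 CPM in EV cells with pioglitazone, 19.0 to 19.9 CPM in PPFP cells with vehicle and 68.3 to 83.1 CPM once PPFP cells had pioglitazone. Plin1, which coats lipid droplets, had 0 to 4 counts in the EV vehicle libraries and 138 to 187 in the PPFP vehicle libraries. Cidec, another lipid droplet protein, had 1 to 2 and 192 to 220. Aqp7, a glycerol channel, had 0 counts in each EV library, 12 to 14 in PPFP cells with vehicle and 256 to 398 with pioglitazone. These 3 genes entered the test between the lines only through their PPFP libraries, so they had to be higher there. Adipoq, the adipocyte hormone adiponectin, differed from them. Its mean was 2.13 CPM for the EV line and 4.50 CPM for the PPFP line with vehicle (log2 1.09, adjusted p = 0.027), and it fell with pioglitazone in PPFP cells (log2 -0.91, adjusted p = 0.024). The difference between the lines did not pass without PPFP vehicle replicate 2 (adjusted p = 0.061), PPFP vehicle replicate 3 (0.067) or EV vehicle replicate 2 (0.056), nor with all 12 libraries in one fit (0.065). Lep had 0 counts in every library, and Fabp4 had at most 5. Summed fibroblast markers ranged from 20.4 to 34.5 CPM and leukocyte markers from 4.40 to 7.13 CPM over the 12 libraries, and summed endothelial markers from 0.215 to 1.48 CPM. The endothelial, fibroblast and leukocyte markers given here were named after their values were seen. The endothelial marker Vwf, at 10 to 19 counts in EV and 19 to 39 in PPFP libraries with vehicle, was higher in PPFP cells (log2 1.17, adjusted p = 0.038). The filter on low counts kept Vwf through the PPFP group, where it is high, and its EV group alone would not have been kept. Of the 2 fibroblast markers tested, Pdgfra was higher in PPFP cells with pioglitazone (log2 0.46, adjusted p = 0.014) and did not pass with vehicle (log2 0.25, adjusted p = 0.24), and Col1a1 passed in neither comparison. The 2 leukocyte markers tested went opposite ways. Cd68 was higher with vehicle (log2 0.86, adjusted p = 0.048) and with pioglitazone (log2 1.18, adjusted p = 0.016). Cd14 was lower with pioglitazone (log2 -0.44, adjusted p = 0.038) and did not pass with vehicle (log2 -0.41, adjusted p = 0.092). The part of these markers in the changes of the 6 genes was not tested.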

How the data were processed

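RNA-seq of 12 libraries was analysed. Per the submitters' processing notes and the methods, the authors aligned 50-nt paired reads to rn4 with TopHat2 2.0.11 and counted them per gene with HTSeq 0.6.1p1 in its strict intersection mode. The deposited table holds these raw counts by gene symbol. A library of the anti-Myc precipitate and its input were not used, because their peaks are placed in rn4 and no annotation of that build was used here.

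After filterByExpr and TMM scaling, counts were tested in R 4.3.3 with edgeR 4.0.16 (glmQLFit, glmQLFTest) on the 6 libraries compared, with limma 3.58.1 loaded and DESeq2 1.42.0 as an alternative. The interaction was fitted on 12 libraries. Each SE is the log2 fold change divided by the root of F. The scripts were tested on simulated data. Sequences and figures were handled in Python 3.11.15. Totals of 23724703 to 35240176 counts set the precision. Replicates were 3 independent experiments per the methods.

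The 6 genes and all lists were chosen with earlier results of these data known. From each list, genes called at a mean of at least 1 CPM over 12 libraries were named, at most 4 per comparison, with Pparg and Pax8. Some genes that meet this rule are not reported here. Genes named outside this rule are marked in the text or are markers of the study's cells. Of the symbols listed, Slco1a4 was matched as Slco1a2 and Slc5a4a as Slc5a4.

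Same-numbered libraries deviated together across 10482 genes in the pioglitazone comparisons (correlations of 0.74, 0.46 and 0.43 in PPFP cells and 0.53, 0.73 and 0.77 in EV cells). In PPFP cells differently numbered libraries correlated by up to 0.54, so not every library was closest to its own number. Replicate numbers from the labels were taken as pairs there because every same-number correlation was over 0.1. Between the cell lines these ranged from -0.38 to 0.32, and the numbers were not taken as pairs, although the samples of an experiment shared sequencing lanes per the methods. Whether a number marks 1 experiment is not given in the sources used here.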

Additional observations from a re-analysis of the deposited data

Results flagged for a closer look

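Slc5a5 and Ano1 are listed because the effect of pioglitazone in PPFP cells differed from that in EV cells by the interaction term of edgeR's quasi-likelihood fit. The term was -0.87 for Slc5a5 (adjusted p = 0.016) and -0.57 for Ano1 (adjusted p = 0.024) on the log2 scale. For both genes the 3 PPFP ratios of pioglitazone to vehicle lay below the 3 EV ratios.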

How the results depend on the processing

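Over 358 alternatives for the 24 fold changes of the 6 genes, 324 kept their direction and side of the threshold, 19 lost and 5 gained significance, and 10 turned sign. All 10 concern differences near 0. For Slc5a8 between the lines with pioglitazone, the log2 fold change was -0.11 with library size alone and -0.0016 with no filter on low counts and with at least 10 counts in every library. With a library left out it ranged from -0.19 (without EV pioglitazone replicate 3) to 0.22. In EV cells the fold change with pioglitazone ranged, with a library left out, from -0.12 to 0.031 for Slc5a5, turning sign without EV pioglitazone replicate 2. It ranged from -0.42 to 0.34 for Kcne2, turning sign without EV pioglitazone replicate 1 or 3 or EV vehicle replicate 2, and from -0.22 to 0.19 for Slc5a8, turning sign without EV pioglitazone replicate 3 or EV vehicle replicate 2. The cause was not tested.

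The number of the 6 genes called in the pioglitazone response of PPFP cells, 0, was 1 with the exact test, 1 with the replicate block and 0 to 1 with a library left out. The number that passed the interaction, 2, was 4 with the replicate block within each cell line and 0 to 2 with a library left out, with 0 without PPFP vehicle replicate 3. The cause was not tested, beyond the smaller number of samples in a fit with a library left out. The replicate block changed no other call of the 6 genes. Between the cell lines, where the numbers were not taken as pairs, it left 3 and 4 genes called. The block raised the genes that passed the interaction within each line from 0 to 2 for hormone transporters, from 0 to 4 for pump subunits, from 1 to 3 for anion channels, from 0 to 3 for potassium channels, from 0 to 2 for the SLC5 family and from 3 to 10 for follicular markers, where the share of all genes rose from 2.64% to 34.3%.

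Of 620 alternatives for 45 results of listed genes, chosen after seeing the data, 604 were the same and 16 lost significance. The exact test compares 2 groups and has no value for the interaction. Peak distance and threshold were not run. Depth limits Kcnq1, Slc26a4 and Kcne2.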
